A study of Homo sapiens with 96 samples.

Results

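Cycloheximide, which stops the ribosome during elongation, was given for 1 h to A375 cells, an established human melanoma line driven by a mutant BRAF kinase, while their MAPK signalling was left intact. This comparison holds 6 of the 96 libraries of the series, namely the 3 taken 1 h after 100 µg/ml cycloheximide (CHX) and the 3 taken 1 h after its DMSO vehicle. All 6 came from cells kept for 18 h in DMSO, the solvent used in place of the BRAF inhibitor vemurafenib and the MEK inhibitor cobimetinib, each 500 nM, which make up the MAPKi pretreatment of other groups. CHX preceded triptolide or its DMSO control by 5 min, and the cells of these 2 groups received no triptolide. RNA of the cytoplasmic fraction, per the labels, was counted from the 3′ ends of transcripts (QuantSeq), and how much nuclear RNA remained was not tested. In such a bulk measure a change in some cells cannot be told apart from a smaller change in all of them. A375 is 1 line, and nothing in the labels says whether replicates were separate cultures. The p-values measure the spread between libraries of the same group, estimated over all 96 libraries of the series. That spread may be technical.

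Genes of the immediate-early class are switched on within minutes of a signal such as active ERK, the last kinase of the MAPK cascade, without any new protein being made. Their mRNAs are short-lived, and both the shut-off of their transcription and the decay of their mRNA are known to need ongoing translation, so that translation blockers raise and prolong their expression, which is called superinduction. Transcripts of snoRNA host genes and poison-exon isoforms of splicing factors are known to be destroyed by nonsense-mediated decay, which also depends on translating ribosomes.

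After 1 h of CHX, 11 of 14948 genes tested were higher than in vehicle and 0 were lower at an edgeR adjusted p under 0.05, which is 0.0736% of the genes. At an unadjusted p under 0.05, 402 genes were higher and 302 lower, and DESeq2 called 19 higher and 0 lower. The largest rises with all 3 libraries behind them were those of EGR1, JUN, FOS and IER2, which are immediate-early genes. Smaller rises were found for TXNIP, an alpha-arrestin that binds thioredoxin and restrains glucose uptake, for DDIT3, the stress transcription factor CHOP, for the snoRNA hosts SNHG1 and EPB41L4A-AS1, and for TRA2B, a splicing regulator. The remaining 2, YWHAE and IBTK, each rested mainly on 1 library. Over all genes, the 3 CHX libraries were all above the 3 vehicle libraries for 817 genes (5.47%) and all below them for 752 (5.03%), and the median log2 change was -0.0024.

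**Figure D1:**
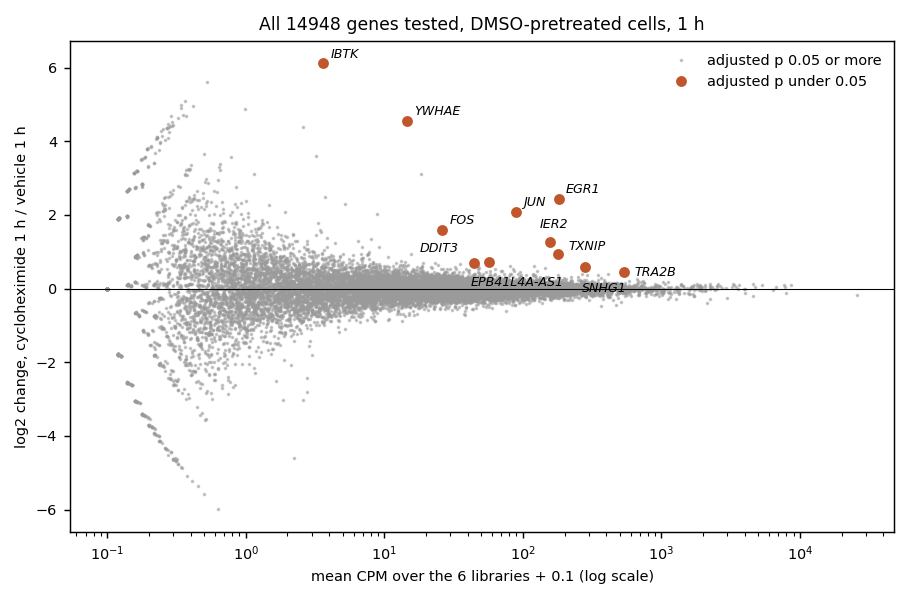
Log2 change after 1 h of cycloheximide against vehicle (vertical axis) and the mean over the 6 libraries of the CPM (counts relative to the TMM-scaled library size) plus 0.1 (horizontal axis, log scale) for the 14948 genes tested. The 11 genes in orange passed an adjusted p under 0.05, all above 0, and IBTK and YWHAE stand apart at low counts.

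The promoters of JUN, EGR1 and FOS, the 3 immediate-early transcription factor genes that were called, are shown. Their response is known to be read through short elements near the start site. The sequences are the 250 bases before the RefSeq start (GRCh38.p14) on the strand of the gene, 5′ to 3′. Capitals mark CArG boxes, which serum response factor binds, TGACNTCA, which includes the JUN element bound by AP-1 and ATF dimers, and TGACGT, the cAMP response element core, on either strand.
JUN, chr1:58784048-58784297, minus strand: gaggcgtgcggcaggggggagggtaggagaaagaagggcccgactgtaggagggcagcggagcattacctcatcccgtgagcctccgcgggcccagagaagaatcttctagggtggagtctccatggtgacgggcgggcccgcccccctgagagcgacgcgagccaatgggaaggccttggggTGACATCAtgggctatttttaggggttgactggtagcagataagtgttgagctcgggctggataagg
EGR1, chr5:138465229-138465478, plus strand: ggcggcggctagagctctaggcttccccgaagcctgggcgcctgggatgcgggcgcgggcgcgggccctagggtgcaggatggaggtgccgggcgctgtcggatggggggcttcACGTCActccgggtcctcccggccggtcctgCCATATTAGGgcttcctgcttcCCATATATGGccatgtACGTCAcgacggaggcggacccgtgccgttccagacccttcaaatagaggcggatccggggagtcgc
FOS, chr14:75278578-75278827, plus strand: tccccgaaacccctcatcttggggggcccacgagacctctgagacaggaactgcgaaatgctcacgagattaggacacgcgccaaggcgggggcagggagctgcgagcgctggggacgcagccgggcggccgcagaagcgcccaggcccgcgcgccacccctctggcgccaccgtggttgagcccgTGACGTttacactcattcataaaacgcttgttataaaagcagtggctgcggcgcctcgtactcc

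Short-lived mRNAs of this class are also known for AU-rich elements in the 3′ UTR, built on ATTTA. At least 1 TATTTAT lay there in 37.2% of tested genes with a 3′ UTR. It did so in 4 of the 7 coding genes called with all libraries behind them (57.1%). One stretch of 27 bases is shown for each, in the annotated 3′ UTR of GRCh38, with TATTTAT in capitals.
JUN, chr1:58780820-58780846, minus strand: tgcttatgaaTATTTATaacagcattc
FOS, chr14:75282061-75282087, plus strand: gtttttaattTATTTATtaagatggat
DDIT3, chr12:57516617-57516643, minus strand: attgtacattTATTTATtactgtccct
TRA2B, chr3:185915974-185916000, minus strand: gaatttgtagTATTTATatataaagtt

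The library totals behind these values were 9010057, 7923024 and 4361068 counts for CHX replicates 1 to 3 and 6701666, 8506673 and 8701619 for vehicle replicates 1 to 3, in a series that ran from 2381351 to 12520154. CHX replicate 3 was thus the shallowest, and it was the highest of the 3 CHX libraries for 7 of the 9 genes called with all libraries behind them. How often it was the highest over all genes was not counted. The melanocyte lineage markers summed to between 1246 and 1336 CPM of the library total with vehicle and between 1329 and 1379 with CHX, with all 13 and 12 of 13 markers detected. SOX10, MITF and S100B were abundant, whereas the pigment genes MLANA, TYR and TYRP1 were at or near 0 in all 6 libraries. Fibroblast markers summed to at most 10.5 CPM and leukocyte markers to at most 2.06 CPM, and KRT18 made up nearly all of the epithelial sum of 133 to 153 CPM.

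Immediate-early transcription factors came first in size. EGR1, a zinc finger activator induced by ERK, was at 51.5, 56.2 and 60.6 CPM in the 3 vehicle libraries and at 239.9, 261 and 418 CPM with CHX, all CPM of single genes being scaled by TMM. The groups did not overlap, and CHX replicate 3 was well above the other two. The fitted log2 change was 2.44 (SE 0.20, edgeR adjusted p = 6.37e-16), and it was 2.21 with replicate 3 left out of every group. JUN, the AP-1 subunit whose own promoter AP-1 binds, was at 30.6, 34.8 and 36.6 CPM with vehicle and at 144, 145 and 147 CPM with CHX. Its CHX libraries were the tightest of all called genes, within 1.02-fold of each other, and its log2 change was 2.09 (SE 0.15, edgeR adjusted p = 6.52e-19). FOS, the AP-1 partner of JUN, was at 12.8, 11.8 and 14 CPM with vehicle and at 40.8, 33.8 and 42.7 CPM with CHX. These groups lay apart as well, with a log2 change of 1.60 (SE 0.25, edgeR adjusted p = 2.9e-05), although the call was lost when replicate 1 was left out of every group (log2 change 1.55, adjusted p = 0.118, where the adjusted p ran from 9.6e-19 to 0.118 over the alternatives).

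ATF3, a stress-induced ATF/CREB factor that dimerizes with JUN, fell at the threshold. It was at 7.54, 11.8 and 11.7 CPM with vehicle and at 19.3, 18.1 and 24.1 CPM with CHX, so that its groups did not overlap. Its log2 change was 0.95 (SE 0.22) with an edgeR adjusted p printed as 0.05 that lay just above the threshold, and 5 of 10 alternatives called it. Over the 10 alternatives its adjusted p ran from 1.94e-05 to 0.944.

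Of the 21 immediate-early transcription factors tested, 3 were called higher, and the list had a median log2 change of 0.22 against -0.0024 for all genes. The CHX libraries were all above the vehicle libraries for 8 of them (38.1%, where the background was 5.47%) and all below for 0. JUNB, an AP-1 subunit, was among the 8 without a call at a log2 change of 0.51 (SE 0.22), as was JUND at 0.58 (SE 0.16). EGR2, close in sequence to EGR1, had a log2 change of 1.47 (SE 0.47) on 5 to 12 counts per vehicle library and 17 to 27 per CHX library. The orphan nuclear receptors NR4A1 and NR4A3 were near 0 at 0.001 and -0.05, and MYC was at -0.34 (SE 0.60). EGR4 had the largest size in the list, 4.33, with an SE of 2.05 and no call.

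IER2, a short immediate-early gene for a nuclear protein, was at 86.6, 90.9 and 99.8 CPM with vehicle and at 179, 189 and 299 CPM with CHX. As for EGR1, the groups lay apart and CHX replicate 3 was the highest. Its log2 change was 1.26 (SE 0.14, edgeR adjusted p = 5.61e-10), and 1.05 with replicate 3 left out of every group. IER2 is overlapped by 2 unnamed genes on the other strand, whose reads cannot be told apart from its own without a stated strand setting. IER2 was the only member called of 19 other immediate-early genes tested, whose median log2 change was 0.32. All CHX libraries were above all vehicle libraries for 6 of the 19 (31.6%, against 5.47% of all genes). They were all below for 1 of the 19, where the share over all genes was 5.03%. IER5, RHOB and TRIB1 were among those 6, with log2 changes of 0.49 (SE 0.16), 0.55 (SE 0.20) and 0.56 (SE 0.20). PLK2, a polo-like kinase, was the member with all CHX libraries lower, at -0.33 (SE 0.17) and no call.

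Of the negative regulators that ERK itself induces, 0 of 13 tested were called, with a median log2 change of 0.30. CHX libraries were all higher for 4 members (30.8%, against 5.47% of all genes). They were all lower for 1 of the 13, DUSP7, where the share over all genes was 5.03%. DUSP1, a MAPK phosphatase, had the largest change of the list, 1.30 (SE 0.41), on 14 to 46 counts per vehicle library and 27 to 115 with CHX. SPRY2, a Sprouty inhibitor of receptor signalling, was at 65.5, 77.3 and 64.5 CPM with vehicle and at 89.7, 99.8 and 109 CPM with CHX, a log2 change of 0.52 (SE 0.20). DUSP6, the ERK phosphatase, was at 322, 334 and 334 CPM with vehicle and at 461, 498 and 254 CPM with CHX. For DUSP6, CHX replicates 1 and 2 were thus above every vehicle library and replicate 3 below every one. The 10 ETS factors downstream of ERK had 0 calls, a median of -0.07 and 0 members with groups apart.

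**Figure D2:**
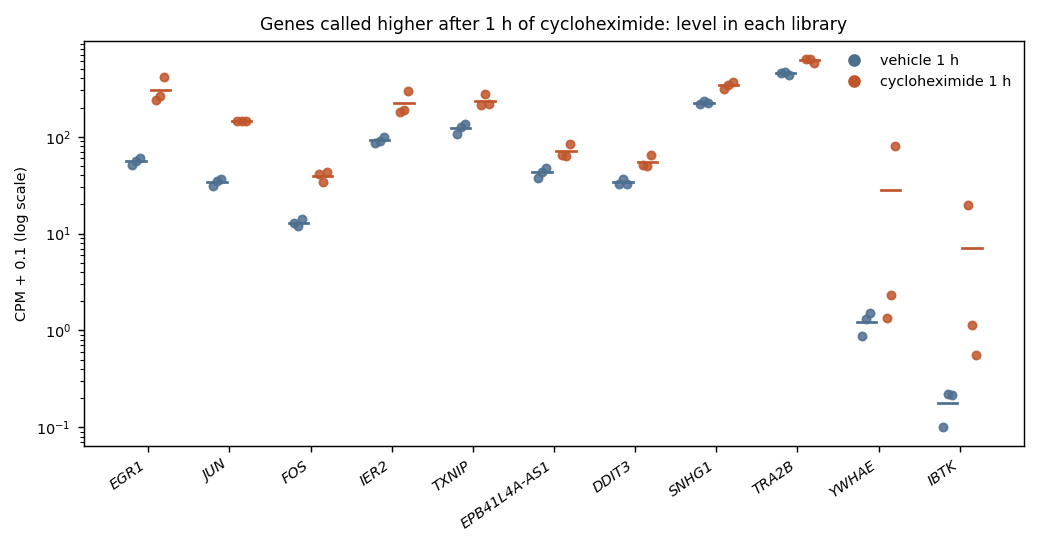
CPM plus 0.1 (vertical axis, log scale) of the 11 genes called higher, for each of the 3 vehicle libraries (blue) and the 3 cycloheximide libraries (orange) at 1 h, with the mean as a line. The groups are apart for 10 of the 11 genes, namely the first 9 and IBTK. YWHAE and IBTK are each far higher in 1 cycloheximide library than in the others.

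TXNIP was at 107, 126 and 136 CPM with vehicle and at 213, 278 and 217 CPM with CHX. The groups were apart, and the log2 change was 0.94 (SE 0.18, edgeR adjusted p = 0.00348), with the call lost when replicate 1 or replicate 2 was left out of every group (adjusted p = 0.211 and 0.465, in a range from 4.56e-17 to 0.465). Of the 5 alpha-arrestins tested, TXNIP alone was called, and the median was 0.61. CHX libraries were all higher for 3 (60%, against 5.47% of all genes). These included ARRDC3 at 0.61 (SE 0.23) and ARRDC2 at 0.51 (SE 0.27), both without a call. ARRDC1, at -0.41 (SE 0.22), had CHX libraries all lower, as 5.03% of all genes did.

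DDIT3, a CEBP-family factor of the integrated stress response, was at 32.8, 36.3 and 32.3 CPM with vehicle and at 50.6, 50.1 and 64.9 CPM with CHX. The log2 change was 0.70 (SE 0.15, edgeR adjusted p = 0.0129), and the call was lost when any 1 replicate number was left out and in a fit of only the 6 libraries. DDIT3 lies on chromosome 12 between 57516588 and 57521737 and overlaps MARS1 and MBD6 on the other strand, and since it is not stated whether the counting used strand, their reads cannot be told apart. It was the 1 member called of 8 GADD45 and CEBP stress factors, whose median was -0.04, and 0 of 18 ATF4 target genes were called (median -0.10). ATF4 itself was at 363, 379 and 323 CPM with vehicle and at 445, 432 and 536 CPM with CHX, a log2 change of 0.41 (SE 0.14) without a call.

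Among noncoding RNAs, SNHG1, whose introns carry several SNORD snoRNAs, was at 219, 233 and 223 CPM with vehicle and at 307, 338 and 368 CPM with CHX. The log2 change was 0.58 (SE 0.10, edgeR adjusted p = 0.000948). EPB41L4A-AS1, the host of SNORA13, was at 37.5, 43.2 and 47.4 CPM with vehicle and at 64.8, 63.3 and 83.7 CPM with CHX, a log2 change of 0.72 (SE 0.13, edgeR adjusted p = 0.000966). Both pairs of groups lay apart, and both calls were lost when replicate 1 or replicate 3 was left out of every group, that of SNHG1 also without replicate 2 and that of EPB41L4A-AS1 also in a fit of only the 6 libraries. EPB41L4A-AS1, on chromosome 5 from 112160526 to 112164818, overlaps EPB41L4A on the opposite strand, so that its count too depends on an unstated strand setting. Of 23 snoRNA hosts tested these 2 were called, and the median of the list was 0.15. CHX libraries were all higher for 5 members (21.7%, against 5.47% of all genes). SNHG12 was next, at 55.2, 66.0 and 68.0 CPM with vehicle and 94.4, 99.8 and 96.9 CPM with CHX, with a log2 change of 0.62 (SE 0.18) and an edgeR adjusted p of 0.5.

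TRA2B, an SR-like splicing activator known to regulate its own mRNA through a poison exon, was at 455, 465 and 436 CPM with vehicle and at 631, 632 and 581 CPM with CHX. This was the smallest of the called changes, 0.44 on the log2 scale (SE 0.09, edgeR adjusted p = 0.00639), and the call was lost when any 1 replicate number was left out and in a fit of only the 6 libraries. TRA2B was the 1 called member of 15 SR and CLK splicing genes, whose median was 0.08. The CHX libraries were all higher for 6 of the 15 (40%, against 5.47% of all genes). Among them were TRA2A at 0.23 (SE 0.08) and the kinase CLK4 at 0.93 (SE 0.32), while CLK1 was at 0.65 (SE 0.20) with groups that overlapped.

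**Figure D3:**
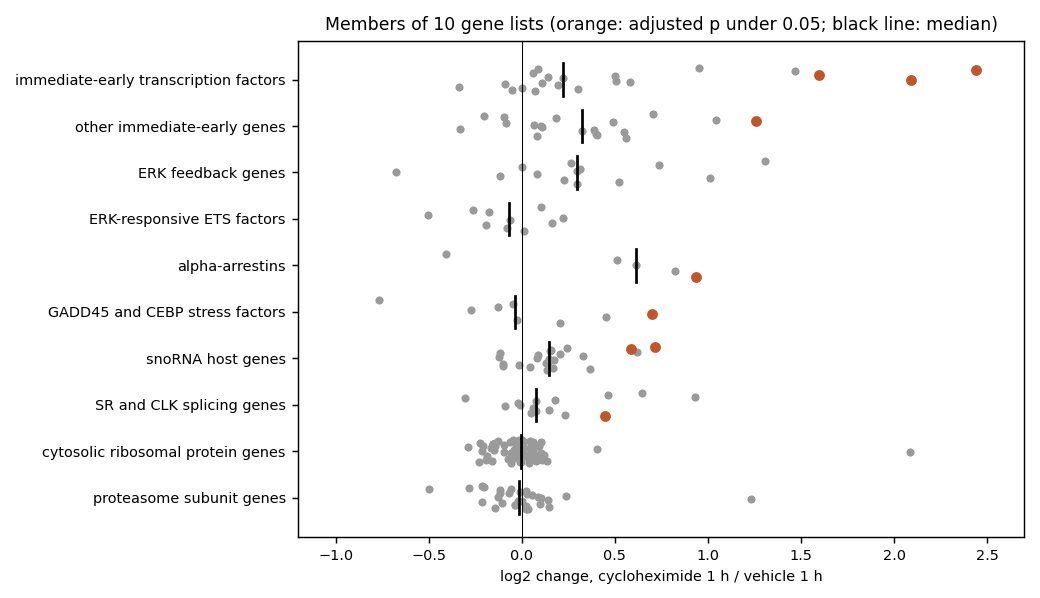
Log2 change after 1 h of cycloheximide (horizontal axis) of each tested member of 10 gene lists, with called members in orange and the list median as a black line. The called members lie to the right of their list medians, with CLK1, CLK3 and CLK4 uncalled farther right than TRA2B, ribosomal protein and proteasome genes centre near 0, and 2 members lie beyond the axis limits of -1.2 and 2.7.

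The 76 cytosolic ribosomal protein genes tested (median log2 change -0.003) and the 30 proteasome subunit genes (median -0.02) had 0 calls. Of 33 lists drawn up, 6 held a called gene, and these held 9 of the 11 called genes. The lists were chosen with earlier results of these data known, so that their counts are descriptions. The other 27 lists had medians between -0.10 and 0.30 except for marker lists with few members tested, fibroblast (0.64, 3 tested) and leukocyte (1.14, 1 tested).

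YWHAE and IBTK had the largest fitted changes of the called genes, 4.56 (SE 0.86, edgeR adjusted p = 0.00231) and 6.13 (SE 1.17, edgeR adjusted p = 0.00249), mainly from 1 library each. YWHAE, a 14-3-3 protein gene, had 348 counts in CHX replicate 3 against 11 and 17 in the other two and 5 to 12 in the vehicle libraries. Leaving replicate 3 out of every group brought its log2 change to 0.76 with an adjusted p of 1, at the top of a range from 2.68e-15, and the call was also lost in a fit of only the 6 libraries. IBTK, named for an inhibitor of Bruton tyrosine kinase, had 171 counts in CHX replicate 1 against 8 and 2 in the other CHX libraries. The vehicle libraries had 0 to 1 counts, so that the groups of IBTK did not overlap. Its log2 change was 2.55 without replicate 1 (adjusted p = 0.944, in a range from 0.000459). XAGE1A, named here after its values were seen, had 1446 counts in CHX replicate 2 against 14 and 13, and was not called (log2 change 4.93, SE 1.18, edgeR adjusted p = 0.0834).

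In position and structure the 9 genes called with all libraries behind them were compact. The median span of the gene was 4293 bases against 33294 over the 13196 tested genes with an annotation, and against 33070.5 for the genes raised by CHX at 3 h. Their median exon number was 4 against 8 for all tested genes, JUN being the 1 gene with a single exon, while the median transcript length of 2905 bases was near that of all tested genes (3216.5). EGR1 lies on chromosome 5 from 138465479 to 138469303, JUN on chromosome 1 from 58776845 to 58784048, FOS on chromosome 14 from 75278826 to 75282230 and IER2 on chromosome 19 from 13150411 to 13154911. TXNIP lies on chromosome 1 from 145992435 to 145996579, SNHG1 on chromosome 11 from 62851978 to 62855953 and TRA2B on chromosome 3 from 185914558 to 185938103.

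Promoter motifs were searched on both strands from 250 bases before to 50 after each RefSeq start. Within this window EGR1 held the only CArG boxes of the 9 genes, 2 of them, at positions -105 to -96 and -83 to -74. Of the 11024 tested genes with a promoter in the table, 1.51% held one there. Sites farther from the start were not searched in any gene. TGACNTCA, searched after the sequences had been seen, was in JUN and TRA2B, or 2 of 9, against 8.43% of tested genes. TGACGT, chosen likewise and overlapping TGACGTCA, was in EGR1, FOS and TRA2B (3 of 9 against 13.8%). TGANTCA was in DDIT3 (7.38% of tested genes), the NF-kB motif in EGR1 (30.2%), and TGACGTCA and CACGTG in 0 of 9 (3.66% and 12.3%). In the 3′ UTR, ATTTA was in 6 of the 7 coding genes (85.7%) against 74.7% of 11946 tested genes with a 3′ UTR, and TATTTAT in 4 of 7 (57.1%) against 37.2%. Density varied among the 7, from 0 ATTTA in the 1053 bases of IER2 and 0.706 per kilobase in TXNIP to 6.2 in FOS and 9.26 in DDIT3. The median of 1.58 per kilobase was below the 1.79 of all tested genes.

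At 0 h, 5 min after CHX, 0 genes differed from vehicle (edgeR; 230 higher and 186 lower at an unadjusted p under 0.05, 0 genes called by DESeq2, and 7 called when the filter on low counts was dropped). At 3 h, 1106 genes (7.4%) were higher with CHX than with vehicle and 406 lower, and at 5 h 2428 (16.2%) were higher and 1640 lower, a balance that turned to 2060 higher and 2349 lower at 5 h when libraries were scaled by total counts. All 9 genes with every library behind their call were also called higher at 3 h and 5 h, whereas YWHAE and IBTK were called at neither. EGR1 rose to a mean of 4215 ± 183 CPM (SD, n = 3) at 3 h and 5524 ± 113 at 5 h with CHX, from 306 ± 97.3 at 1 h and 51.0 ± 1.29 at 0 h, against 46.6 to 110 CPM in vehicle means. JUN went from 21.8 ± 3.04 CPM at 0 h to 145 ± 1.56, 1224 ± 50 and 1702 ± 67.7 at 1, 3 and 5 h. FOS went from 3.82 ± 1.88 to 39.1 ± 4.67, 415 ± 22.7 and 673 ± 88.2. TXNIP went from 83.1 ± 7.62 to 236 ± 36.7, 2361 ± 125 and 3891 ± 598.

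**Figure D4:**
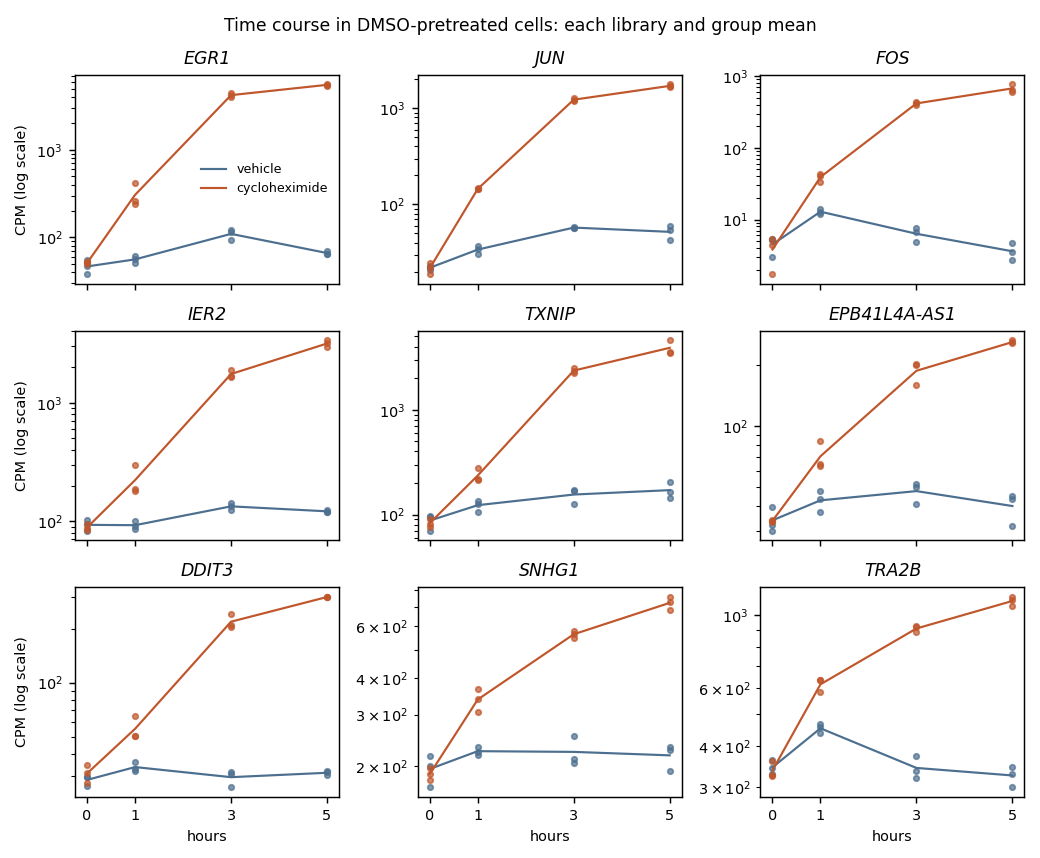
CPM (vertical axis, log scale, one range per panel) of 9 genes at 0, 1, 3 and 5 h with vehicle (blue) or cycloheximide (orange), as points for the 3 libraries and a line through the means. The lines part between 0 and 1 h and are farthest apart at 3 and 5 h.

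The CHX effect at 3 h exceeded that at 1 h for 310 genes (2.07%), among them all 9, in a contrast that shares the 1 h libraries with the main one. The difference was largest for FOS (log2 4.45, SE 0.36, edgeR adjusted p = 1.97e-16) and smallest for SNHG1 (0.75, SE 0.15, edgeR adjusted p = 0.000353, range over 10 alternatives 1.14e-05 to 0.0822). Genes called higher at 3 h had a median log2 change of 0.097 at 1 h, and their CHX libraries were all higher at 1 h for 196 of 1106 (17.7%, against 5.47% of all genes) and all lower for 25 (2.26%). For the 340 of them with a log2 change of at least 1 at 3 h, the 1 h median was 0.23 and 83 (24.4%) were all higher. All 9 genes were among these 340. The 406 genes called lower at 3 h had a 1 h median of -0.04, with 39 (9.61%) all lower and 4 (0.985%) all higher.

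Vehicle alone also changed with time, and vehicle at 1 h differed from vehicle at 0 h for 5 genes (0.0334%). FOS rose in vehicle from 5.39, 5.16 and 2.96 CPM to 12.8, 11.8 and 14 CPM (log2 change 1.58, SE 0.31, edgeR adjusted p = 0.00895, range over alternatives 7.74e-11 to 0.495, lost without replicate 1 or 3 and in a fit of only the groups compared), so that CHX came on top of a change that vehicle also showed. NFKBIA, which encodes the NF-kB inhibitor IkBα, rose in vehicle from 52.5, 48.4 and 48.9 CPM to 130, 137 and 152 CPM (log2 change 1.49, SE 0.16, edgeR adjusted p = 4.9e-10). With CHX at 1 h NFKBIA was at 128, 128 and 138 CPM, inside the vehicle range or just below it, with a log2 change of -0.09 (SE 0.15). SRSF10 was the third gene that rose (0.31), and MIRLET7BHG (-1.71) and KCNQ1OT1 (-0.65) fell. Of the 9 genes with all libraries behind their call at 1 h, FOS alone was called here. Without a call, TRA2B rose in vehicle by 0.39 (SE 0.09, edgeR adjusted p = 0.0524), close to its CHX effect of 0.44. JUN rose by 0.63 (SE 0.16, edgeR adjusted p = 0.0946) and TXNIP by 0.48 (SE 0.19). IER2 alone of the 9 had a negative value, -0.007 (SE 0.14). The vehicle 1 h libraries enter both this contrast and the main one.

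With MAPK signalling blocked, CHX at 1 h raised 9 genes and lowered 2 (0.0736% in all), and JUN, FOS and TXNIP were called in both pretreatments. The difference between the pretreatments was itself called for 3 genes (0.0201%), EGR1, JUN and IER2, each with the larger log2 effect in DMSO. EGR1 was at 3.97, 1.74 and 3.20 CPM with vehicle and at 3.11, 1.03 and 3.52 CPM with CHX after MAPKi, from 8 to 31 counts per library, where the DMSO libraries had 335 to 2106. Its effect differed by 2.80 on the log2 scale (SE 0.47, edgeR adjusted p = 0.000794, range over alternatives 1.26e-18 to 0.161, lost without replicate 1 or 2 and in a fit of only the groups compared). JUN stood at 242, 269 and 215 CPM with vehicle after MAPKi, above even the CHX libraries of DMSO-pretreated cells, and reached 467, 423 and 400.5 CPM with CHX. Counted in CPM rather than as a ratio, the gain of JUN with CHX was larger after MAPKi than in DMSO. Its log2 effect of 0.83 (SE 0.13) after MAPKi was smaller than the 2.09 in DMSO by 1.26 (SE 0.20, edgeR adjusted p = 0.000176, range 3.32e-12 to 0.345, lost without replicate 2). IER2 was at 78.0, 69.1 and 49.4 CPM with vehicle and at 87.5, 66.8 and 72.1 CPM with CHX after MAPKi, groups that overlap, and its effect differed by 1.04 (SE 0.20, edgeR adjusted p = 0.00661, range 4.42e-08 to 0.957), a call lost without replicate 1 or 2, with DESeq2 (adjusted p = 0.199) and in a fit of only the groups compared.

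The other 6 genes gave no called difference between pretreatments. TXNIP had a log2 change of 1.68 (SE 0.18) after MAPKi against 0.94 in DMSO, a difference of -0.74 (SE 0.26, edgeR adjusted p = 0.543). FOS had 1.17 (SE 0.22) against 1.60, and the difference of 0.42 had an SE of 0.33. SNHG1 had 0.02 (SE 0.11) against 0.58, and EPB41L4A-AS1 0.06 (SE 0.13) against 0.72. Their differences, 0.56 (SE 0.15, edgeR adjusted p = 0.372) and 0.65 (SE 0.18, edgeR adjusted p = 0.383), did not pass, so SNHG1 and EPB41L4A-AS1 cannot be called different. TRA2B had 0.39 (SE 0.09) after MAPKi, a difference of 0.06 (SE 0.13), and DDIT3 had 0.48 (SE 0.14), a difference of 0.22 (SE 0.21).

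**Figure D5:**
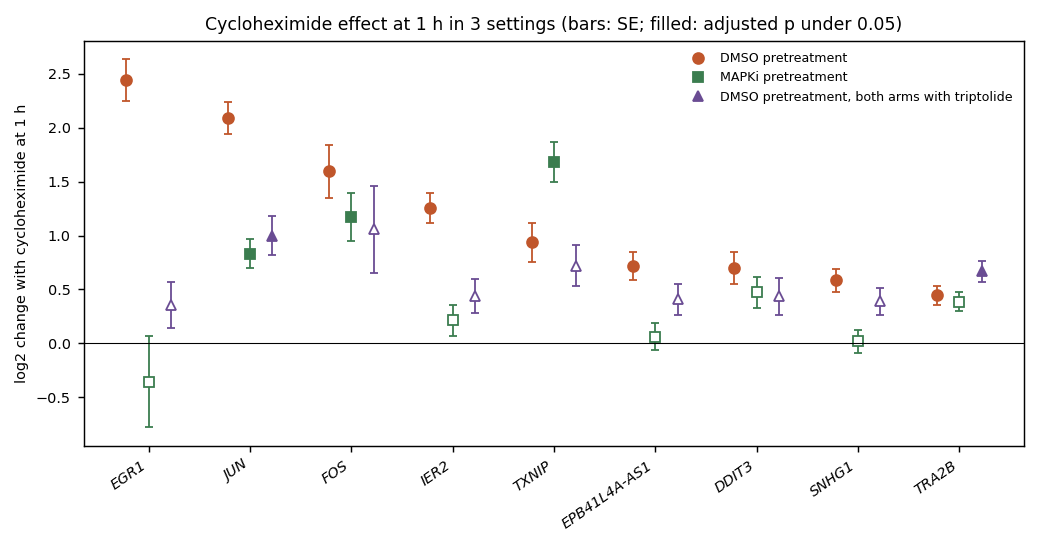
Log2 change with cycloheximide at 1 h (vertical axis, bars show the SE, 3 libraries per group) of 9 genes in DMSO-pretreated cells (orange), MAPKi-pretreated cells (green) and DMSO-pretreated cells with triptolide in both arms (purple). Filled symbols passed an adjusted p under 0.05, and EGR1 is at 2.44 in the first setting, -0.36 in the second and 0.36 in the third. The first and second settings were scaled by TMM and the third on 36 stable genes. Distances to the third setting are therefore not the tested differences.

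Triptolide, which blocks transcription initiation through TFIIH, was given at 25 µM in other groups, and there CHX can act on RNA already made. Those contrasts were scaled on 36 stable genes. With triptolide in both arms, CHX at 1 h raised 6 genes and lowered 0 (0.0401%), and JUN and TRA2B were in both lists of calls. JUN was at 12.3, 11 and 8.62 CPM with triptolide alone and at 22.1, 23.8 and 18.4 CPM with both drugs, a log2 change of 1.00 (SE 0.18, edgeR adjusted p = 0.00265). Its levels with both drugs were near the 22.8 ± 1.99 CPM (SD, n = 3) of the triptolide arm at 0 h. TRA2B was at 276, 290 and 223 CPM with triptolide alone and at 416, 394 and 446 CPM with both drugs (0.67, SE 0.10, edgeR adjusted p = 5.96e-05). The other 4 were CCNL1 (0.79), NFKBIA (0.93), SNHG12 (0.95) and KLF6 (0.68). Without triptolide, edgeR called none of these 4, while DESeq2 called CCNL1 and SNHG12. In the same order, their effects without minus with triptolide were -0.23 (SE 0.19), -0.94 (SE 0.23), -0.24 (SE 0.27) and -0.28 (SE 0.20). None of these differences was called. Leaving replicate 3 out of every group ended all 6 calls, with log2 changes of 0.49 for TRA2B (adjusted p = 1, range 5.5e-06 to 1) and 0.96 for JUN (adjusted p = 0.208, range 7.04e-08 to 0.39).

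For EGR1 the 2 settings came apart. It was at 49.1, 37.7 and 27.8 CPM with triptolide alone and at 52.2, 48.6 and 46.2 CPM with both drugs, values that overlap, with a log2 change of 0.36 (SE 0.21) and no call. The effect without triptolide was larger by 2.17 (SE 0.29, edgeR adjusted p = 1.29e-06), a difference called in all 8 alternatives. For JUN the effect was larger without triptolide by 1.18 (SE 0.24, edgeR adjusted p = 0.0247), but 5 of 8 alternatives lost this call, with adjusted p from 4.66e-06 to 0.59. These and LOC102723347 were the 3 genes called in the contrast (0.0201%). IER2 had 0.44 (SE 0.16) with triptolide, and its difference of 0.90 (SE 0.22) did not pass (edgeR adjusted p = 0.25). TRA2B had a difference of -0.14 (SE 0.14), and TXNIP one of 0.30 (SE 0.26).

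Loss of RNA after 1 h of triptolide alone was called for 87 genes (0.582%), of which 4 were among the 9, JUN (-1.09), TXNIP (-0.72), SNHG1 (-0.54) and TRA2B (-0.43). All 9 had a negative value, with a median of -0.54 against -0.07 for all genes tested. The share of negative values over all genes was not counted. IBTK (0.59) and YWHAE (0.71), also called at 1 h with CHX, had positive values. FOS was at -1.19 (SE 0.41) on 5 to 29 counts per library and did not pass. The 87 genes had a median log2 change of 0.13 with CHX alone at 1 h, and CHX libraries were all higher for 17 of them (19.5%, against 5.47%) and all lower for 4 (4.6%). With triptolide present, CHX gave the same 87 genes a median of 0.35 against 0.03 for all genes, in a contrast that shares the triptolide 1 h libraries with the one that chose them.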

How the data were processed

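Per the labels, libraries were made from RNA of the cytoplasmic fraction of A375 cells with the QuantSeq 3′ kit. The authors trimmed forward reads with fastp 0.20.1, mapped them with HISAT2 2.2.1 to GRCh38.p13 and counted reads on exons with htseq-count (HTSeq 0.13.5), per their methods and processing notes. They deposited raw counts per gene for 44659 entries and 96 libraries. The strand setting of the counting and molecular identifiers are not given in the sources used here, so floors and precision cover counting error only. Spike-ins were added but are not used here, and values are relative to each library.

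Samples were grouped by the labels, 3 libraries for each of 32 groups. Genes were kept by filterByExpr of edgeR 4.0.16 in R 4.3.3 (14948 genes), scaled by TMM, or on 36 stable genes for contrasts with triptolide, and fitted with a quasi-likelihood model of 1 mean per group over all 96 libraries. Tests were two-sided, and calls were made on p-values adjusted by Benjamini-Hochberg over all genes tested, with a threshold of 0.05. Fitting, calls and recovery of known changes were tested on simulated data, with changes placed in all 3 CHX libraries of genes with higher counts. Rises in 1 library alone, as for YWHAE and IBTK, were not simulated. Levels are CPM on the same scaling, with the SD over 3 libraries. Levels of marker genes are given as CPM with no correction for length.

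Genes named were the largest called rises and falls of the main contrast with a mean of at least 10 counts per library over the 6 libraries, an annotation match and the same direction in all 3 replicate numbers; list members that were called or had the largest size in their list; and the largest called in the differences from MAPKi and from triptolide by the same filter. LOC102723347 and XAGE1A, the genes called in the vehicle contrast and the contrast with triptolide in both arms, and list members that were neither called nor largest in size were named after their values were seen. The members and lists were chosen with earlier results of these data known. YWHAE and IBTK were left out of the 9 genes said to have all libraries behind their call after their values were seen. Of the entries, 27026 matched GENCODE v44 (GRCh38) by symbol. Within the 2 groups, pairs of libraries had a Pearson r of log2 counts from 0.961 to 0.974 and a chi-square per degree of freedom of 4.16 to 9.95, so that none was a copy. Alternatives were DESeq2 1.42.0 and its size factors, TMM or total counts in place of the main scaling, no filter on low counts, a replicate block, each replicate number left out, only the groups of the contrast and, chosen after seeing the data, a robust spread. Promoter sequences are from RefSeq (GRCh38.p14), and every sequence printed was checked against the genome. Python 3.11.15 with pandas 2.3.3 and matplotlib 3.10.9 was used for tables and plots.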

Additional observations from a re-analysis of the deposited data

Results flagged for a closer look

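The CHX effect at 1 h differed between DMSO and MAPKi pretreatment by a test of the difference for EGR1 (2.80 on the log2 scale), JUN (1.26) and IER2 (1.04), each larger in DMSO on that scale. It differed between cells without and with triptolide for EGR1 (2.17), JUN (1.18) and LOC102723347 (7.58). LOC102723347 had 22, 15 and 3 counts in the CHX libraries, 1, 0 and 0 with vehicle, 3, 11 and 7 with triptolide and 2, 1 and 0 with both drugs.

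The CHX effect was larger at 3 h than at 1 h, again by a test of the difference, for DDIT3 (2.18), EGR1 (2.82), EPB41L4A-AS1 (1.27), FOS (4.45), IER2 (2.46), JUN (2.32), SNHG1 (0.75), TRA2B (0.96) and TXNIP (2.99). For YWHAE the difference was -4.55, and it rests on the 348 counts of 1 library at 1 h. The cause of these differences was not tested.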

How the results depend on the processing

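Direction was checked gene by gene for ATF3 and for calls in the main contrast, vehicle at 1 h against 0 h and CHX after MAPKi. Calls in CHX with triptolide, the differences from MAPKi and triptolide, and the main calls in the 3 h minus 1 h effect were checked. None of these changed direction under any alternative that gave a value. Other changes, including those without a call, were not checked in this way. The main count of 11 genes became 38 without the filter on low counts (30 higher, 8 lower), 19 with DESeq2 and 6 in a fit of only its 6 libraries, and 4 to 9 with 1 replicate number left out. Without replicate 3, 6 were higher and 1 (FAM181B) lower. All 11 were called under both other scalings, the replicate block (12 calls) and the robust spread. JUN, EGR1 and IER2 kept their calls in all 10 alternatives, while DESeq2 gave YWHAE and IBTK no adjusted p. Without the filter, CHX against vehicle at 0 h gave 7 genes, vehicle at 1 h against 0 h 34, CHX after MAPKi 190, the difference between DMSO and MAPKi 232 (42 higher and 190 lower, where the main count was 3 higher and 0 lower), CHX with triptolide 24 and the difference between without and with triptolide 15. DESeq2 size factors gave 13 genes for vehicle at 1 h against 0 h, total counts gave 24 for CHX after MAPKi, and DESeq2 gave 27 for vehicle and 663 for the 3 h effect minus the 1 h effect. Fits of only the groups compared gave 1 gene for the difference from MAPKi, 1 for that from triptolide and 51 for triptolide at 1 h. Leaving out a replicate number gave 1 to 4 genes for vehicle at 1 h against 0 h, 694 to 839 for CHX at 3 h, 2646 to 2995 at 5 h, 130 to 167 for the 3 h minus the 1 h effect, 2 to 32 for CHX after MAPKi, 0 to 3 for its difference from DMSO, 0 to 3 for CHX with triptolide, 1 to 2 for the difference from triptolide and 33 to 46 for triptolide at 1 h. Same-numbered CHX and vehicle libraries at 1 h did not deviate together (r = -0.20, -0.05 and -0.38 over 8323 genes), so the numbers were not read as pairs. Pairs with different numbers ran from -0.28 to 0.33. Deviations were taken from the mean of each group, so these values depend on one another. They cover these 2 groups only and cannot exclude an effect of the replicate number. A replicate block gave 13 genes for vehicle at 1 h against 0 h and 19 for CHX after MAPKi. The cause of these changes was not tested. CHX replicate 3, at 4361068 counts, limits the precision of low genes.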
